A study of Mus musculus with 6 samples.

Results

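The genes described here encode proteins of the mitochondrial import machinery and of the CHCHD family. They were taken as all protein-coding mouse genes whose symbol starts with *Timm*, *Tomm* or *Chchd*, which gave 34 of the 31053 genes counted. The group was chosen by the measured levels of *Timm10* and *Chchd6*, which were higher in KIKO than in WT libraries, so the values of these genes between the genotypes are given as a description. No p is given for them, and where they are counted past a threshold the count follows from the choice and supports nothing. Bulk RNA sequencing of mouse cerebellum was available for 2 WT and 3 KIKO libraries. KIKO (knock-in knock-out) mice are the disease model of the study, and the controls were C57BL/6 WT littermates. For bulk RNA sequencing the study describes CD45+/CD11b+ cells, taken with magnetic beads from the cerebellum of 6-mo-old mice. It also reports transcriptomes of microglia cultured from the cerebellum of much younger mice, and of CD11b+ cells after dietary butyrate. The sample labels give the tissue and the genotype and neither age, sex nor sorting. They do not state which of these experiments the libraries come from. The numbered samples are not stated to be separate mice in the labels, so a p-value here measures the spread between these samples. WT replicate 3 was not analysed here.

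Most mitochondrial proteins are made in the cytosol and imported. They cross the outer membrane through the TOM complex, whose receptors recognise the precursor and pass it to a channel. Proteins with a cleavable presequence then cross the inner membrane through TIM23, whereas carrier proteins are escorted by the small TIM chaperones of the intermembrane space to TIM22. The small TIM and the CHCHD proteins share paired cysteines that are oxidised in the intermembrane space by the disulfide relay of *Chchd4*. Several CHCHD proteins have other roles, among them the building of cristae by the MICOS complex.

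The libraries were shallow. The WT libraries held 1044760 and 1351339 counts (replicates 1 and 2) and the KIKO libraries 1281661, 1241997 and 1013107 (replicates 1, 2 and 3), the order in which values of single libraries are given throughout. Levels are given as normalized CPM, counts scaled to a common library size (CPM) with TMM factors, unless counts are named. A signal of 3 counts corresponded to between 2.22 and 2.96 CPM before scaling. KIKO replicate 2 stood apart. Across the 28 members that could be tested, Pearson r of log2 CPM between this library and another was 0.591 to 0.755, and r between the remaining 4 was 0.776 to 0.874. Genes of a library share its depth and scaling, so these values describe the libraries. The common coefficient of variation between replicates was 0.468 with KIKO replicate 2 and 0.238 without it, and results are therefore given with and without that library.

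Markers of microglia were found in every library, with summed levels of 3983 and 5059 normalized CPM in WT and 3400, 9664 and 4003 in KIKO (8 genes, *Csf1r* the most abundant). Choroid plexus markers summed to 10610 and 11660 in WT and to 7911, 14130 and 6617 in KIKO (4 genes, nearly all from *Ttr*). Transcripts of cells other than microglia were thus abundant in all libraries. Neuronal markers (5 genes, *Snap25* the most abundant) summed to 2045 and 1383 in WT and to 1831, 1467 and 1802 in KIKO. In 0 of the 10 marker lists did the summed level separate the genotypes, and 6 lists were highest in KIKO replicate 2. Without this library, 3 lists separated them. Purkinje neuron markers (5 genes, *Itpr1* the most abundant) summed to 386.5 and 266.2 in WT and were higher in KIKO replicates 1 and 3, at 593.1 and 525.6 (295.2 in KIKO replicate 2). Those of the choroid plexus were lower in these KIKO libraries than in WT. Border macrophage markers (5 genes) summed to 187.3 and 225.3 in WT and to 186.9 and 169.5 in these KIKO libraries (340.8 in KIKO replicate 2). WT replicate 1 and KIKO replicate 1 were thus nearly equal. *Cd163* went the other way, with 10.96 and 15.9 in WT and 19.7 and 29.4 in KIKO replicates 1 and 3. Each of the other border macrophage genes overlapped in these libraries. *Pf4* was the most abundant of them only through KIKO replicate 2, where it had 160.7 CPM. The part of these markers in the values of the members was not tested. None of the markers was at 0 in all libraries. In bulk samples, fewer cells of a type and less RNA per cell cannot be told apart.

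Of the 34 members, 33 had a count in at least 1 library and 28 (82.4%) passed the filter on low counts. The other 6 were *Timm23*, *Timm8a1*, *Timm8a2*, *Tomm5*, *Tomm6* and *Tomm20l*, which had at most 9 counts in any library, and *Tomm20l* had 0 counts in all 5. *Timm10*, *Chchd6* and *Timm21* passed the filter only through the KIKO libraries, as neither WT library reached the 8.05 CPM it asks for. Levels of different genes were compared per kilobase of summed exon length, as the mean of the 5 libraries. *Chchd2*, which encodes an intermembrane space protein, had the highest level, with 307.8 CPM per kb (258 to 404 across libraries). It was followed by *Tomm7*, a small TOM subunit, with 114.3 (63.1 to 273), the small TIM gene *Timm8b* with 94.9 (60.7 to 189) and the *Chchd2* paralog *Chchd10* with 70.8 (49.1 to 91.7). *Chchd2* was the highest in every library. The ranges of *Tomm7*, *Timm8b* and *Chchd10* overlapped and their order changed between libraries, so it was not set beyond the spread. *Timm10* and *Chchd6* had no single rank, since their levels differed between the genotypes. *Timm10* had 2.76 CPM per kb in WT (27th of the 34 genes) and 29.2 in KIKO (7th), and *Chchd6* had 2.23 in WT (28th) and 9.76 in KIKO (14th). Of the 10 genes with the highest level per kb, 7 were also among the 10 with the highest CPM. *Tomm70a*, which encodes a receptor for carrier proteins, ranked 7th by CPM and 23rd per kb. The sources differ on the library kit, and if reads came from 1 end of the transcripts, the scaling by length would not apply.

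**Figure D1:**
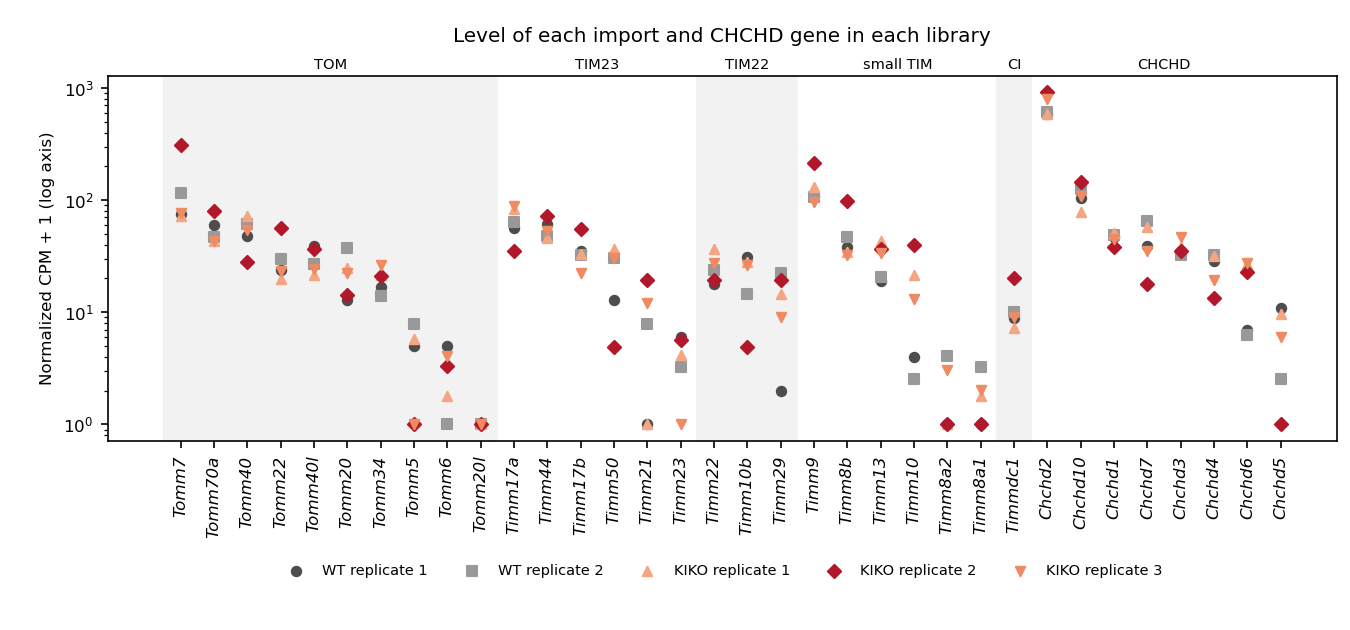
Normalized CPM + 1 on a log axis for the 34 genes, by role (CI, complex I assembly), with 1 symbol per library. *Chchd2* was the highest gene in all libraries, the KIKO libraries lay above the WT libraries in *Timm10*, *Chchd6*, *Timm13*, *Tomm34* and *Chchd3*, and KIKO replicate 2 lay apart in *Tomm7*, *Timm8b*, *Timm50* and *Timm10b*.

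Among the small TIM chaperones, the KIKO values lay above the WT values in *Timm10*, which chose the group, and in *Timm13*, which did not pass the thresholds of the study. *Timm9* and *Timm8b* overlapped. Across all genes tested, 8.2% had all KIKO values above all WT values. *Timm10* (ENSMUSG00000027076, chr2:84826997-84830213 of GRCm38, plus strand) encodes the partner of *Timm9* in the ring-shaped chaperone that carries hydrophobic precursors across the intermembrane space. It had 2.99 and 1.52 normalized CPM in the WT libraries and 20.5, 38.6 and 12.2 in the KIKO libraries. All KIKO values were above both WT values, and KIKO replicate 2 was the highest. These levels came from 3 and 2 counts in WT and from 26, 50 and 12 counts in KIKO. The ratio of the pooled rates was 11.5, and without KIKO replicate 2 it was 7.83. These ratios are a description, since the gene was chosen by this contrast. In the fit across all genes the log2 fold change was 3.38 with a standard error (SE) of 0.88, and without KIKO replicate 2 it was 2.85 (0.87). Its exons share no base with another annotated gene.

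*Timm9* encodes the partner of *Timm10* and had 107.6 and 106.2 CPM in WT and 130.1, 214.8 and 94.4 in KIKO. The groups overlapped, with KIKO replicate 2 the highest and KIKO replicate 3 the lowest of the 5 libraries. Its log2 fold change was 0.46 (SE 0.43), and 0.07 (0.29) without KIKO replicate 2. *Timm10* was chosen by this contrast, so nothing is concluded from its difference from *Timm9*, which was not tested. Per count of *Timm9*, there were 0.0278 and 0.0143 counts of *Timm10* in WT and 0.158, 0.18 and 0.129 in KIKO. All 3 KIKO ratios were above both WT ratios, which follows largely from the *Timm10* counts that chose the group. This ratio is 1 of 9 computed between partner genes, which were chosen after the counts had been seen.

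*Timm13* (ENSMUSG00000020219, chr10:80899450-80900969) encodes a further small TIM chaperone, which pairs with the products of the *Timm8* genes. Its levels were 17.9 and 19.7 CPM in WT and 42.6, 35.6 and 32.5 in KIKO, which gave 18.8 ± 1.27 (SD, n = 2) and 36.9 ± 5.18 (SD, n = 3). All KIKO values were above both WT values, and KIKO replicate 2 lay between the other KIKO libraries. The log2 fold change of 0.97 (SE 0.47) did not pass the thresholds of the study, a log2 fold change beyond 0.75 in either direction with an unadjusted p below 0.05. Without KIKO replicate 2 it was 0.99 (0.45) and passed them, with an adjusted p of 0.567 in edgeR's quasi-likelihood test. *Timm8b*, a partner of *Timm13*, had 36.9 and 46.3 CPM in WT and 33.1, 98.1 and 31.5 in KIKO. KIKO replicate 2 was the highest and the other KIKO libraries were the lowest. The log2 fold change of *Timm8b* went from 0.39 (SE 0.59) to −0.37 (0.40) when KIKO replicate 2 was left out. *Timm13* counts per *Timm8b* count were 0.486 and 0.426 in WT and 1.29, 0.362 and 1.03 in KIKO, and per *Timm9* count 0.167 and 0.186 in WT and 0.327, 0.165 and 0.344 in KIKO. In both ratios KIKO replicate 2 was the lowest library, by a small margin in the latter. Of the remaining small TIM genes, *Timm8a1* had at most 3 counts and *Timm8a2* at most 4 in a library. *Timm13* shares 43 exon bases with *Tmprss9* on the opposite strand, which had at most 1 count in a library, and *Timm8b* shares 81 with *Nkapd1*, which had 68 to 97 counts. The strand setting of the counting is not given in the sources used here.

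**Figure D2:**
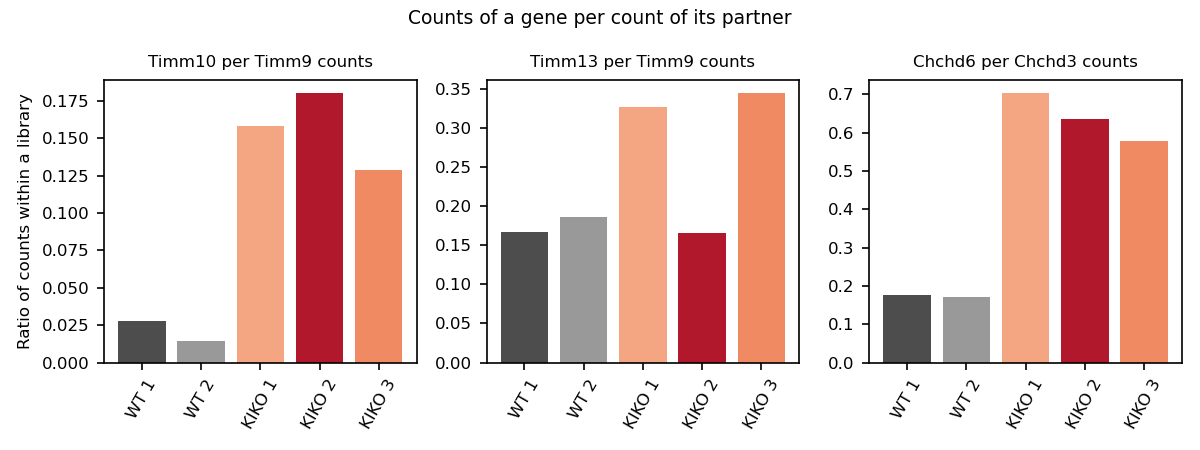
Counts of a gene divided by the counts of its partner in each of the 5 libraries, as bars from 0 and with no error bar because each bar is 1 library. *Timm10* per *Timm9* and *Chchd6* per *Chchd3* were higher in all 3 KIKO libraries, whereas *Timm13* per *Timm9* in KIKO replicate 2 was 0.165, at the WT level.

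Among the 8 CHCHD genes, *Chchd6* and *Chchd3*, both of the MICOS complex at cristae junctions, had all KIKO values above the WT values, and the other 6 overlapped. Of these, *Chchd6* chose the group, and 8.2% of all genes tested had all KIKO values above all WT values. *Chchd6* (ENSMUSG00000030086, chr6:89383146-89595652, minus strand) had 5.98 and 5.31 CPM in WT and 26.0, 21.6 and 26.4 in KIKO. All KIKO libraries were well above both WT libraries, and KIKO replicate 2 was close to the other KIKO libraries. The counts were 6 and 7 in WT and 33, 28 and 26 in KIKO. As a description, the ratio of pooled rates was 4.38, and 4.68 without KIKO replicate 2. The fitted log2 fold change was 2.11 (SE 0.62), and 2.195 (0.63) without KIKO replicate 2. Its exons share no base with another annotated gene. *Chchd3* had 33.9 and 31.1 CPM in WT and 37.1, 34.0 and 45.7 in KIKO. The groups were separated by less than 1 CPM, between WT replicate 1 and KIKO replicate 2. Its log2 fold change was 0.26 (SE 0.43), and 0.34 (0.40) without KIKO replicate 2. Per *Chchd3* count, *Chchd6* had 0.176 and 0.171 counts in WT and 0.702, 0.636 and 0.578 in KIKO. Per count of *Immt*, the large MICOS subunit, it had 0.03 and 0.0383 in WT and 0.129, 0.22 and 0.141 in KIKO. In both ratios all KIKO libraries were above the WT libraries, which again follows largely from the *Chchd6* counts.

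The promoters of *Timm10* and *Chchd6* are shown with those of their partners *Timm9* and *Chchd3*, so that the pairs can be compared. Each sequence holds 250 bases before and 30 bases after the annotated start (RefSeq, GRCm38.p6), 5′ to 3′ on the strand of the gene. Capitals mark the letters CCGGAAGT, bound by ETS factors, and the CCAAT box, on either strand. The windows are chr2:84826771-84827050 (plus strand), chr12:71136646-71136925 (minus), chr6:89595623-89595902 (minus) and chr6:33060231-33060510 (minus), in the order below.
Timm10: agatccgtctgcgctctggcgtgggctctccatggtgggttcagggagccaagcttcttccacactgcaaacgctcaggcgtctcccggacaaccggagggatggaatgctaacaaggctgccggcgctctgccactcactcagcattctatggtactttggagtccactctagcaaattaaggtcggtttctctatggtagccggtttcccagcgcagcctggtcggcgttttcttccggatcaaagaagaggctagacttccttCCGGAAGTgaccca
Timm9: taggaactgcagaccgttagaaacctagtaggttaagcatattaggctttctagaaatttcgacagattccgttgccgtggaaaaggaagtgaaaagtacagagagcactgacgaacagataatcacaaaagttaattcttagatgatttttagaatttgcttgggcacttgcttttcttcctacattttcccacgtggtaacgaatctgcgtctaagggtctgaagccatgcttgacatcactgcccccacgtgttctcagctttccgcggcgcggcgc
Chchd6: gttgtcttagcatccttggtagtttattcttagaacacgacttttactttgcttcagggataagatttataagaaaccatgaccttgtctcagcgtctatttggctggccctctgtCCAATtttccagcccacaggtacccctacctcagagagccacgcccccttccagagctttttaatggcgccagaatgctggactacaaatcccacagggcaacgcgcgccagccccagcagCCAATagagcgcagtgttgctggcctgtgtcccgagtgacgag
Chchd3: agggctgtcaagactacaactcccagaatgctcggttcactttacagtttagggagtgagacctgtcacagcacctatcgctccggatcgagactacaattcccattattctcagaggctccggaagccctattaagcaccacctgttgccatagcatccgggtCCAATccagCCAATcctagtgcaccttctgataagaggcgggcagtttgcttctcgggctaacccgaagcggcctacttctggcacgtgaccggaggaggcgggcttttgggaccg
*Timm10* held the ETS letters from base 17 after the start, and *Timm9* held neither motif. *Chchd6* held CCAAT at −134 and −13, and *Chchd3* at −86 and −77. *Timm10* and *Chchd6* thus shared neither of these motifs.

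In windows of 300 bases (250 before and 50 after the start), 29 of the 34 members had an entry, with 31 windows, and 5 motifs were searched on both strands. The ETS letters CCGGAAGT were found in 8 member windows (25.8%), those of *Chchd5*, *Timm10*, *Timm10b*, *Timm23*, *Timm29*, *Timm8a2*, *Timmdc1* and *Tomm70a*. They were found in 3.89% of all 32851 windows and in 7.67% of the windows of genes tested here. The share of members was 19.4% in the first 250 bases alone (compared with 2.88% of all and 5.5% of tested genes), where *Timm10* and *Timm10b* no longer held the letters. CCAAT was found in 10 member windows (32.3%, compared with 37.4% of all and 36.9% of tested genes), and GGGCGGG of the GC box in 10 (32.3%, compared with 25.6% of all and 46.8% of tested genes). The YY1 motif was found in 1 window, that of *Timm50* (3.23%, compared with 0.852% of all and 2.09% of tested genes), and that of NRF1 in 0 (compared with 0.971% and 1.97%). None of the motifs contains another. The median GC content was 58.7% in member windows and 52.7% in all windows. A match describes the letters of a window and is no evidence of binding.

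*Chchd2* had 590.7 and 608.3 CPM in WT and 585.2, 915.7 and 792.5 in KIKO. KIKO replicates 2 and 3 were above both WT libraries and KIKO replicate 1 below them, with a log2 fold change of 0.35 (SE 0.39), and 0.19 (0.26) without KIKO replicate 2. *Chchd10* had 103.6 and 124.4 in WT and 77.3, 144.5 and 107.6 in KIKO, so that its KIKO libraries spread on both sides of WT, and its log2 fold change went from −0.06 (SE 0.39) to −0.32 (0.29) without KIKO replicate 2. *Chchd1*, which encodes a protein of the mitochondrial ribosome, had the narrowest range of the family relative to its level, with 45.8 and 47.8 in WT and 49.7, 37.1 and 43.6 in KIKO. The import receptor of the disulfide relay, *Chchd4*, had 27.9 and 31.1 in WT and 30.8, 12.4 and 18.3 in KIKO. KIKO replicates 2 and 3 were the lowest libraries of *Chchd4*, and its log2 fold change was −0.53 (SE 0.55), and −0.26 (0.46) without KIKO replicate 2. *Chchd7* had 37.9 and 63.7 in WT and 56.0, 17.0 and 34.5 in KIKO, with a log2 fold change of −0.51 (0.56), which was −0.17 (0.38) without KIKO replicate 2 and −0.09 without WT replicate 2. *Chchd5* had 10 and 2 counts in WT and 11, 0 and 5 in KIKO, too few to compare.

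For TIM22, which inserts carriers into the inner membrane, the channel gene *Timm22* had 16.9 and 22.8 CPM in WT and 35.5, 18.6 and 26.4 in KIKO. The groups overlapped through KIKO replicate 2, and the log2 fold change was 0.43 (SE 0.54), and 0.63 (0.47) without that library. *Timm29*, a subunit that holds TIM22 together, had 1 and 28 counts in WT and 17, 24 and 8 counts in KIKO. The WT libraries enclosed all KIKO libraries. *Timm10b*, which docks the small TIM chaperones on TIM22, had 29.9 and 13.7 CPM in WT and 26.8, 3.86 and 25.4 in KIKO. KIKO replicate 2 was the lowest, and the log2 fold change went from −0.22 (0.82) to 0.28 (0.50) without it. *Timm10b* shares 277 exon bases with *Arfip2* on the opposite strand and *Timm29* shares 107 with *Yipf2*, both of which had counts in each library.

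For TIM23, 4 of the 5 tested genes had a log2 fold change between 0.06 (*Timm44*) and 0.20 (*Timm17a*), and each overlapped between the genotypes. Without KIKO replicate 2, 2 of these 4 were above 0, and *Timm44* was at −0.16 (SE 0.35) and *Timm17b* at −0.27 (0.44). *Timm17a*, of the channel core, had 55.8 and 63.0 CPM in WT and 82.8, 34.0 and 88.3 in KIKO. KIKO replicates 1 and 3 were above WT and KIKO replicate 2 below it. Its paralog *Timm17b* had 33.9 and 31.1 in WT and 32.3, 54.1 and 21.3 in KIKO. KIKO replicate 2 thus was highest in *Timm17b* and lowest in *Timm17a*, with 1.59 *Timm17b* counts per *Timm17a* count, compared with 0.241 to 0.607 in the other libraries. *Timm50*, the presequence receptor of TIM23, had 11.95 and 29.6 in WT and 35.5, 3.86 and 29.4 in KIKO. WT replicate 1 and KIKO replicate 2 were both low, and its log2 fold change was 0.13 (SE 0.86), and 0.61 (0.48) without KIKO replicate 2. With another library left out it was −0.37 (WT replicate 1), 0.925 (WT replicate 2), −0.35 (KIKO replicate 1) or −0.09 (KIKO replicate 3). The sign for *Timm50* was thus not settled. *Timm44*, which tethers the import motor, had 60.8 and 47.0 in WT and 45.0, 71.1 and 51.8 in KIKO. *Timm21*, which links TIM23 to the respiratory chain, had 0 and 9 counts in WT and 0, 24 and 11 in KIKO. A count of 0 there allows up to 3 counts, so *Timm21*, which passed the filter only through KIKO, was not resolved at this depth. Its log2 fold change of 1.44 (SE 1.61) was 0.51 without WT replicate 1 and 6.50 without WT replicate 2. The channel gene *Timm23* had 5 and 3 counts in WT and 4, 6 and 0 in KIKO and was not tested.

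For TOM, with the cytosolic *Tomm34* counted in, 4 of the 7 tested genes had a log2 fold change above 0 and 3 below. The channel gene *Tomm40* had 46.8 and 60.7 CPM in WT and 71.8, 27.1 and 52.8 in KIKO. The groups overlapped, with KIKO replicate 1 the highest and KIKO replicate 2 the lowest. *Tomm7* had 74.7 and 113.8 in WT and 71.0, 307.5 and 76.1 in KIKO. Only KIKO replicate 2 was above WT replicate 2, and the log2 fold change went from 0.69 (SE 0.67) to −0.37 (0.31) without it. The receptor gene *Tomm22* had 22.9 and 28.8 in WT and 18.9, 54.9 and 22.3 in KIKO, again highest in KIKO replicate 2 and lowest in KIKO replicate 1. Its log2 fold change went from 0.31 (0.60) to −0.34 (0.48) without KIKO replicate 2. *Tomm20*, the presequence receptor, had 11.95 and 36.4 in WT and 23.7, 13.1 and 21.3 in KIKO, and *Tomm70a* 58.8 and 45.5 in WT and 41.8, 79.6 and 42.6 in KIKO. The WT libraries of *Tomm20* were farther apart than the KIKO libraries. *Tomm34*, a cytosolic co-chaperone of import, had 15.9 and 12.9 in WT and 20.5, 20.1 and 25.4 in KIKO. All KIKO libraries of *Tomm34* were above WT, with a log2 fold change of 0.61 (SE 0.55), and 0.66 (0.54) without KIKO replicate 2. *Tomm40l*, a paralog of the channel gene that shares 3304 exon bases with *Nr1i3*, had 37.9 and 25.8 in WT and 20.5, 35.6 and 23.3 in KIKO.

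Over the 28 members tested, 2 passed the thresholds of the study, *Timm10* and *Chchd6*, which had chosen the group. Of all 10889 genes tested, 131 passed (1.2%), 78 higher in KIKO (0.716%) and 53 lower (0.487%), and nothing is read from the members' count because the choice used this contrast. Of the other 26 members, 0 passed, and their adjusted p was 1 in edgeR's quasi-likelihood test. No gene of the 10889 tested had an adjusted p under 0.05 in that test, and 131 (1.2%) had an unadjusted p under 0.05. That share is below the 0.05 expected if no gene differed, so this fit called few genes. A member that did not pass is therefore not shown to be unchanged. All KIKO values lay above all WT values in 5 members, of which *Timm13*, *Tomm34* and *Chchd3* did not choose the group (3 of 26), and below them in 0. Among all genes tested, 8.2% lay above and 8.51% below. Without KIKO replicate 2, *Timm13* joined *Timm10* and *Chchd6* past the thresholds among 25 members tested. Of all genes, 669 of 10373 then passed (6.45%), 2.94% higher and 3.51% lower in KIKO, and 852 had an unadjusted p under 0.05 in edgeR. Adjusted p in edgeR was under 0.05 for 0 members and for 0.0482% of all genes. Without this library, the KIKO values of 5 of the 23 members tested other than *Timm10* and *Chchd6* lay above those of WT (21.7%) and of 4 below, compared with 19.6% and 19.2% of all genes.

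The median log2 fold change of the 28 members was 0.22, with 19 above 0 and 9 below, compared with 0.02 for all genes, of which 51.9% were above 0. The other 26 still include *Timm21* (1.44, SE 1.61), which passed the filter only through the KIKO libraries. Without *Timm10* and *Chchd6* the median was 0.18, with 17 above 0 and 9 below. This positive median rested on KIKO replicate 2, without which the median of the members was −0.01, as was that of all genes, and −0.10 when *Timm10* and *Chchd6* were left out as well (10 above 0 and 13 below). Of the 25 members tested in both fits, 9 changed the sign of their log2 fold change when this library was left out, 7 of them from above to below 0. By role and leaving out *Timm10* and *Chchd6*, the median with all libraries was 0.46 for 3 small TIM genes and −0.11 for 7 CHCHD genes, and without KIKO replicate 2 it was 0.07 for 3 and −0.09 for 6. For TOM it turned from 0.07 (7 genes) to −0.30 without that library, with 2 of 7 genes above 0. These 7 include the cytosolic *Tomm34*, at 0.61 with all libraries, and the sign of the 0.07 rested on counting it here. The median was 0.24 and 0.28 for the 3 TIM22 genes, and 0.15 (5 genes, *Timm21* included) and 0.18 (4 genes) for TIM23. The TIM22 medians were the values of different genes, *Timm29* with all libraries and *Timm10b* without KIKO replicate 2. *Timm29* was at −0.67 without WT replicate 1 and at 3.59 without WT replicate 2. *Timmdc1*, which encodes a complex I assembly factor, was fitted at 0.40 (SE 0.81), with 19.3 CPM in KIKO replicate 2 and 6.31 to 9.10 in the other libraries. In other families of nuclear genes for mitochondrial proteins, the median was −0.10 for the 73 *Mrpl* and *Mrps* genes tested (1 past the thresholds, higher) and 0.12 for the 32 *Slc25a* genes (0 past the thresholds). Without KIKO replicate 2 these medians were −0.155 (70 genes, 2 higher and 2 lower past the thresholds) and −0.09 (30 genes, 1 higher and 1 lower). These differences between families were not tested.

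**Figure D3:**
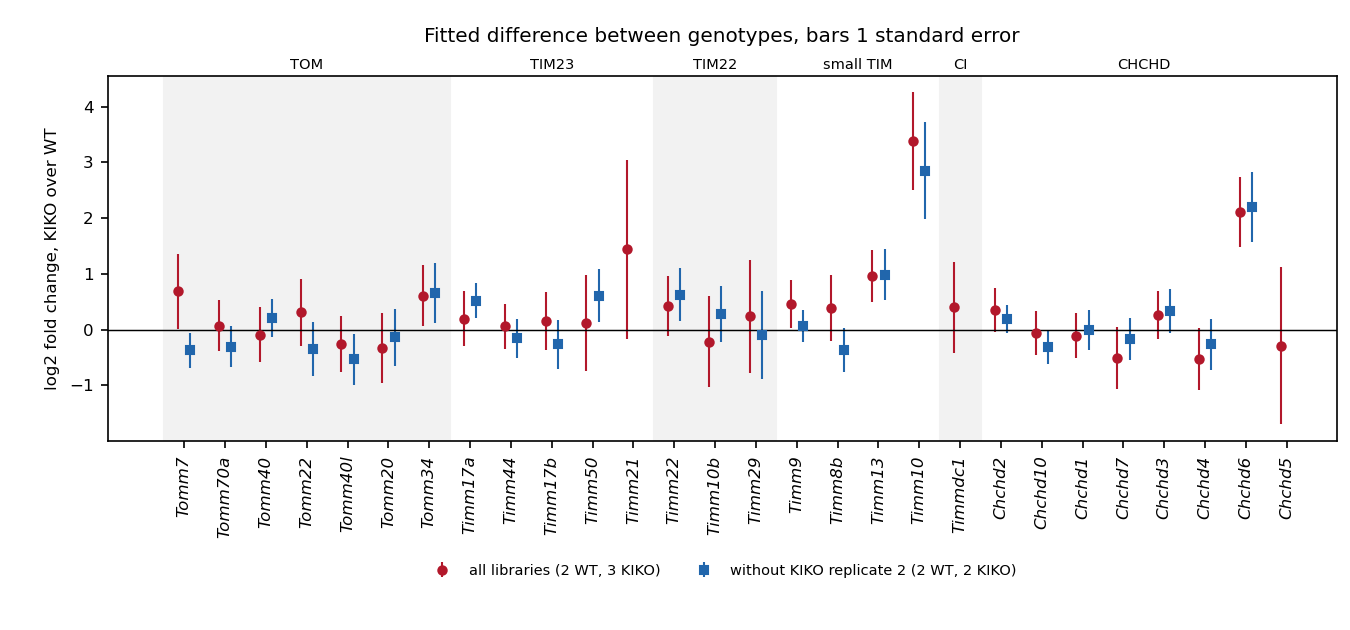
Log2 fold change of KIKO over WT for the 28 tested genes by role (CI, complex I assembly), with bars of 1 standard error, for all libraries (circles) and without KIKO replicate 2 (squares, 25 genes). *Timm10* and *Chchd6*, which chose the group, and *Timm13* stayed above 0.75 without KIKO replicate 2, whereas *Tomm7*, *Tomm22* and *Timm8b* changed sign.

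Other genes of the import pathway were compared from lists of 45 genes, of which 40 were tested and 0 passed the thresholds, with a median log2 fold change of −0.07. The presequence motor and matrix chaperones (9 of 9 tested) had a median of −0.10, with −0.41 (SE 0.46) for the chaperonin gene *Hspd1* and 0.02 (0.42) for its co-chaperonin *Hspe1*. *Hspe1* had 192.2 and 316.3 CPM in WT and 250, 340 and 183.7 in KIKO, with overlapping groups. The genes for outer membrane insertion (6 of 6) had a median of 0.12, with *Mtch2* at −0.24 (0.40) and *Mtch1* at 0.21 (0.40), both insertases. The MICOS partners of *Chchd6* (3 of 5) had a median of −0.06. *Immt* had 199.2 and 138.8 CPM in WT and 201.1, 98.1 and 186.7 in KIKO, and *Minos1* had 46.8 and 59.2 in WT and 71.8, 71.9 and 59.9 in KIKO. The groups overlapped in *Immt* and were separated by less than 1 CPM in *Minos1*, with log2 fold changes of −0.06 (0.43) and 0.36 (0.38). Processing and quality control genes (8 of 9) had a median of −0.23, with the protease gene *Yme1l1* at −0.36 (0.51) and the insertase gene *Oxa1l* at 0.66 (0.44). The disulfide relay partners of *Chchd4*, *Gfer* and *Aifm1*, had log2 fold changes of −0.49 (0.72) and 0.30 (0.58). The other genes for proteins with the paired cysteine motif of the CHCHD family (12 of 14) had a median of 0.06, with *Uqcrh* at 0.20 (0.37) and *Cox6b1* at −0.33 (0.35), both respiratory chain subunits. Several of these values rested on KIKO replicate 2. Without it, the median was −0.35 for the presequence motor and matrix chaperones, 0.05 for outer membrane insertion (5 genes), 0.21 for the MICOS partners, −0.40 for processing and quality control and −0.06 for the genes with the paired cysteine motif (11 genes). The log2 fold change was then −0.73 for *Hspd1*, −0.24 for *Hspe1*, 0.43 for *Mtch1*, −0.02 for *Mtch2*, 0.20 for *Immt*, 0.01 for *Yme1l1*, 0.36 for *Oxa1l*, 0.07 for *Aifm1*, −0.28 for *Gfer* and 0.06 for *Uqcrh*. *Immt*, *Yme1l1* and *Hspe1* thus changed sign. Without KIKO replicate 2, 2 of 38 tested pathway genes passed the thresholds, the processing peptidase gene *Pmpca* at −1.46 and *Coa5* at −0.94, both lower in KIKO, with adjusted p of 0.381 and 0.55 in edgeR. They were 5.26% of the pathway genes tested, compared with 6.45% of all genes in that fit.

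KIKO replicate 2 was the highest library in 12 of the 28 members tested (42.9%, compared with 33.9% of all genes tested). It was the lowest in 8 (28.6%, compared with 37.1%), and thus an extreme in 71.4%, as in 71.0% of all genes tested. It was more than 1 log2 unit above the mean of the other libraries in 6 members (*Timm10*, *Timm21*, *Timm8b*, *Timmdc1*, *Tomm22* and *Tomm7*) and below it in 7 (*Chchd4*, *Chchd5*, *Chchd7*, *Timm10b*, *Timm17a*, *Timm50* and *Tomm40*), 21.4% and 25% of the members, compared with 16.4% and 24.9% of all genes tested. The combined share of extremes was near that of all genes, but this library was more often the highest and less often the lowest in the members. Its median log2 deviation from the mean of the others was 0.405 in the members and −0.077 in 10885 genes tested. This upward lean was not tested. Among the partner ratios, chosen after the counts were seen, this library had 11.4 *Tomm7* counts per *Tomm40* count, compared with 0.989 to 1.88 in the other libraries. *Tomm22* per *Tomm20* was 4.18 there and 0.792 to 1.92 elsewhere, and *Timm50* per *Timm44* was 0.0543 there and 0.197 to 0.789 elsewhere. All 34 members summed to 0.146% and 0.163% of the counts in WT and to 0.163%, 0.245% and 0.174% in KIKO (exact Clopper-Pearson 95% intervals 0.139 to 0.154, 0.156 to 0.17, 0.157 to 0.171, 0.237 to 0.254 and 0.166 to 0.182, counting error only). Only KIKO replicate 2 was far from the rest. The microglial marker sum was highest in the same library, as were those of border macrophages, astrocytes, oligodendrocytes, choroid plexus and blood. Oligodendrocyte markers summed to 5020 and 11630 normalized CPM in WT and to 4333, 18720 and 5527 in KIKO. The part of these markers in the members' values was not tested.

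The WT libraries also differed from each other. In 6 of the 28 members (21.4%, compared with 18.6% of all genes tested) they were more than 1 log2 unit apart, among them *Timm29* (1 and 28 counts), *Tomm20* (12 and 48), *Timm50* (12 and 39) and *Timm21* (0 and 9). For these genes, the distance between the WT libraries was as large as that between the genotypes or larger.

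**Figure D4:**
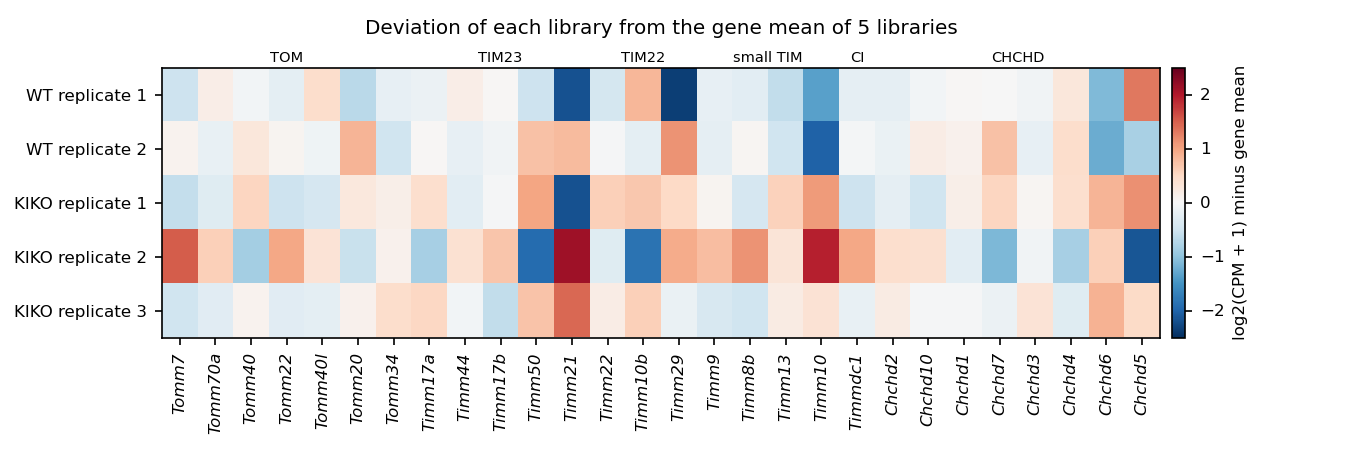
Difference of each library's log2(CPM + 1) from the mean of the 5 libraries, for the 28 tested genes by role (CI, complex I assembly). Red is above and blue below the gene mean, and values beyond the ends of the colour scale are drawn in its end colours. KIKO replicate 2 departed in both directions, and in *Timm10* and *Chchd6* both WT libraries were below all KIKO libraries.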

How the data were processed

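RNA of WT and KIKO cerebellum was sequenced. For extraction and libraries, the study gives a Zymo Research kit and single-end Digital mRNA-seq by NEGEDIA, but the labels give a lipid tissue kit and stranded Illumina libraries. Per the study's methods, Trimmomatic, HISAT2 (mm10) and featureCounts were used by the authors to trim, align and count the reads. The gene annotation, the strand setting and the treatment of reads mapping to several places are not given in the sources used here. The deposited counts are whole numbers per gene and not normalized. The log2 values deposited beside them had the form of counts divided by a factor per library, plus 1. With each factor estimated from the same values, this form returned the counts of the 5 libraries within 0.01. The study states that DESeq2 was used to normalize counts, but the factors were not compared with DESeq2 size factors. Columns were matched to samples by name. Each table also holds 2 columns of per-sample values that match no sample label, and they enter no value given here.

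Gene names and coordinates were taken from GENCODE M21 (GRCm38), which matched 99.86% of the identifiers. A pseudogene and an antisense gene bearing such symbols were left out. The analysis used edgeR 4.0.16 under R 4.3.3. The filter filterByExpr (minimum count 10, minimum total 15) left 10889 genes, and libraries were scaled by TMM (factors 0.9712 to 1.057). KIKO and WT were compared by the two-sided quasi-likelihood test over all genes, with Benjamini-Hochberg adjustment. WT replicate 3 was not analysed here, which left 2 against 3 samples. The procedure was tested on simulated data with a common spread for all genes and no library standing apart. That simulation therefore does not cover the effect of KIKO replicate 2. Depth was 1013107 to 1351339 counts per library. Reads of amplified fragments are not independent molecules, so intervals cover counting error only.

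The members and the gene lists were chosen with earlier results of these data known. All members could be named, and, from each pathway list, the genes past the thresholds and otherwise the 2 with the highest mean CPM. Alternatives were DESeq2 1.42.0 with its own filtering, scaling by RLE or by library size only, looser and stricter filters, the replicate number as a block, limma 3.58.1 with trend on the deposited log2 values and leaving out each library. Some results are not reported.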

Additional observations from a re-analysis of the deposited data

How the results depend on the processing

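The number of members past the thresholds, which are the genes that chose the group and so lend it no support, was 2 with DESeq2, RLE factors, library size alone, the looser filter, limma with trend and the replicate block. With at least 10 counts in every library the number was 0, since *Timm10* and *Chchd6* were then not tested, and it ranged from 1 (without WT replicate 2, *Timm10* alone) to 3 (without KIKO replicate 2) when 1 library was left out. The members' median log2 fold change ranged from −0.008 (without KIKO replicate 2) to 0.39 (without WT replicate 2). Members with an adjusted p under 0.05 were 0 in all fits. Pathway genes past the thresholds ranged from 0 to 2 with 1 library left out. All genes past the thresholds numbered 383 with every gene of at least 1 count, and from 56 (without WT replicate 1) to 669 (without KIKO replicate 2) with 1 library left out. The split was 78 higher and 53 lower with TMM, 94 and 43 with library size alone and 128 and 45 with DESeq2. The replicate block gave 271 genes (109 higher, 162 lower), and the members' median was 0.23. Same-numbered libraries deviated together with r = 0.18 and 0.239, and other pairs with r from −0.239 to 0.218, but with 2 WT libraries these values mirror each other, and whether the numbers pair the samples was not settled. Of 323 named gene and setting pairs, 316 moved by less than 1 standard error, but 27 pairs, from 15 of the 28 genes, had the opposite sign, 9 of these pairs without KIKO replicate 2, 5 without WT replicate 1 and 5 without WT replicate 2. The log2 fold change ranged from 2.85 to 3.87 for *Timm10*, 1.97 to 2.195 for *Chchd6* and 0.85 to 1.05 for *Timm13*. Fits without a WT library assume that the lone WT sample varies like the KIKO samples. What caused these changes was not tested. Genes near 3 counts per library were limited by depth.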
